A study of Mus musculus with 6 samples.

Results

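The genes described here are 29 genes of cholesterol synthesis, uptake and storage, measured by bulk RNA-seq in F4/80high and F4/80low tumor-associated macrophages (TAMs). They were chosen by name, and all 29 were found among the 23424 genes of the count tables and among the 14776 protein-coding genes that passed the filter of at least 10 counts summed over the libraries. They comprise 18 enzymes of sterol synthesis and 11 genes of SREBP control, sterol transport, lysosomal release, esterification and oxysterol synthesis. YUMM1.7, a mouse melanoma cell line, had been grown intradermally in untreated wild-type C57Bl/6J females, aged 8 weeks when the tumors were induced. On day 21, CD45+CD11b+ cells, gated as Lin- (without lineage markers) in the study's methods, were sorted by their level of F4/80, the surface protein encoded by *Adgre1*, into an F4/80high and an F4/80low subset. Each subset has 3 libraries, from 3 independent experiments with 10 pooled tumors each, so no library stands for a single animal. Libraries of one replicate number were taken to share an experiment and to form a pair, which the labels do not state. The libraries hold 16045281 to 43604373 counts, and levels are given as CPM, the counts scaled to a common library size after TMM normalization.

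Mammalian cells build cholesterol from acetyl-CoA through mevalonate, squalene and lanosterol, mostly in the endoplasmic reticulum. When sterols run low, SCAP escorts the SREBP transcription factors to the Golgi for cleavage, and the released part switches on the genes of the pathway, while INSIG proteins hold SCAP back when sterols are plentiful. Macrophages also take up lipoproteins and dead cells, free the cholesterol in lysosomes, and either export it or store it as esters. They can convert it to 25-hydroxycholesterol as well, an oxysterol that restrains SREBP cleavage.

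The regions before the start sites of *Hmgcs1* and *Ch25h* are shown. Of the 24 members with a promoter, *Hmgcs1* was the only one that held TCACNCCAC, the only form of the sterol regulatory element searched for. Other forms may be present in the other members. *Ch25h* had the largest difference between the subsets. The sequences are from RefSeq (GRCm38.p6) and run from 250 to 21 bases before the start site, with chr13:119690101-119690330 on the plus strand for *Hmgcs1* and chr19:34475169-34475398 on the minus strand for *Ch25h*. Capitals mark TCACNCCAC, a form of the sterol regulatory element, the CCAAT box (CCAAT, or ATTGG on the other strand), and TGACGTCA, the cAMP response element.
Hmgcs1: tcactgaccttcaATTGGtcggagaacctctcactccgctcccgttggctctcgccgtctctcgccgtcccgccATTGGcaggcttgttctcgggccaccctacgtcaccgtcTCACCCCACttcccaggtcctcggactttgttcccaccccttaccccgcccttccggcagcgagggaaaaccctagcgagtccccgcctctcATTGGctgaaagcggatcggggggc
Ch25h: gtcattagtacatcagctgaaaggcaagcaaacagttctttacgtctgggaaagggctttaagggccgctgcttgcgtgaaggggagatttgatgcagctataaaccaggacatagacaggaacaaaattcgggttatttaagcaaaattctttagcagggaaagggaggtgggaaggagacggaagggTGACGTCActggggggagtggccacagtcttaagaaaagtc
A promoter of 250 bases before to 50 after the start was available for 24 of the 29 members. Searched on both strands, TCACNCCAC was present in 1 of these 24, against 1.44% of all genes with a promoter, and its first base in *Hmgcs1* lay 137 bases before the start. CCAAT was present in 21 of 24 members (87.5%), against 41.1% of all genes and 42.5% of the fitted genes. The GC box GGGCGG was present in 22 of 24 (91.7%), against 38.2% of all genes and 64.8% of the fitted genes. *Ch25h* held none of these 3 motifs. Its TGACGTCA, a motif searched for only after the sequence had been read, lay 61 bases before the start. This motif was present in 2.03% of all genes and 3.33% of the fitted genes. These matches describe the letters alone and do not show that a factor binds.

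For 28 of the 29 genes no difference between the subsets was called, and the call of *Ch25h* depended on the pairing of libraries. *Ch25h*, which encodes cholesterol 25-hydroxylase, was 4.53-fold higher in F4/80high than in F4/80low TAMs when libraries of the same replicate number were compared. With batch as a covariate (replicate 3 of both subsets against the rest), edgeR called none of the 29 members (threshold: adjusted p under 0.05 with a log2 fold change beyond 1 or -1), and this fit called 0 of the 14776 genes in either direction (percent called: 0). With the replicate number, taken to mark the experiment, as a block, 1 member was called. It was called higher in F4/80high, as were 0.23% of all genes (0.514% in both directions). In the batch fit, 21 members had a higher and 8 a lower estimate in F4/80high, where 50.8% of all genes had a higher one. The median log2 fold change of the members was 0.18, against 0.01 for all genes. At an unadjusted p under 0.05 the batch fit had 1 member, *Ch25h*, higher in F4/80high as were 3.26% of all genes, with 7.57% in both directions. DESeq2 with batch called 0 members, with 0.311% of all genes higher in F4/80high and 1.02% in both directions. DESeq2 with the block called 1 member, again *Ch25h*, with 0.893% and 2.42%. The block fit had 2 members at an unadjusted p under 0.05, *Ch25h* and *Dhcr7*, both higher in F4/80high as were 3.96% of all genes, with 9.84% in both directions. In bulk libraries, fewer cells of a type and less RNA per cell cannot be told apart.

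**Figure D1:**
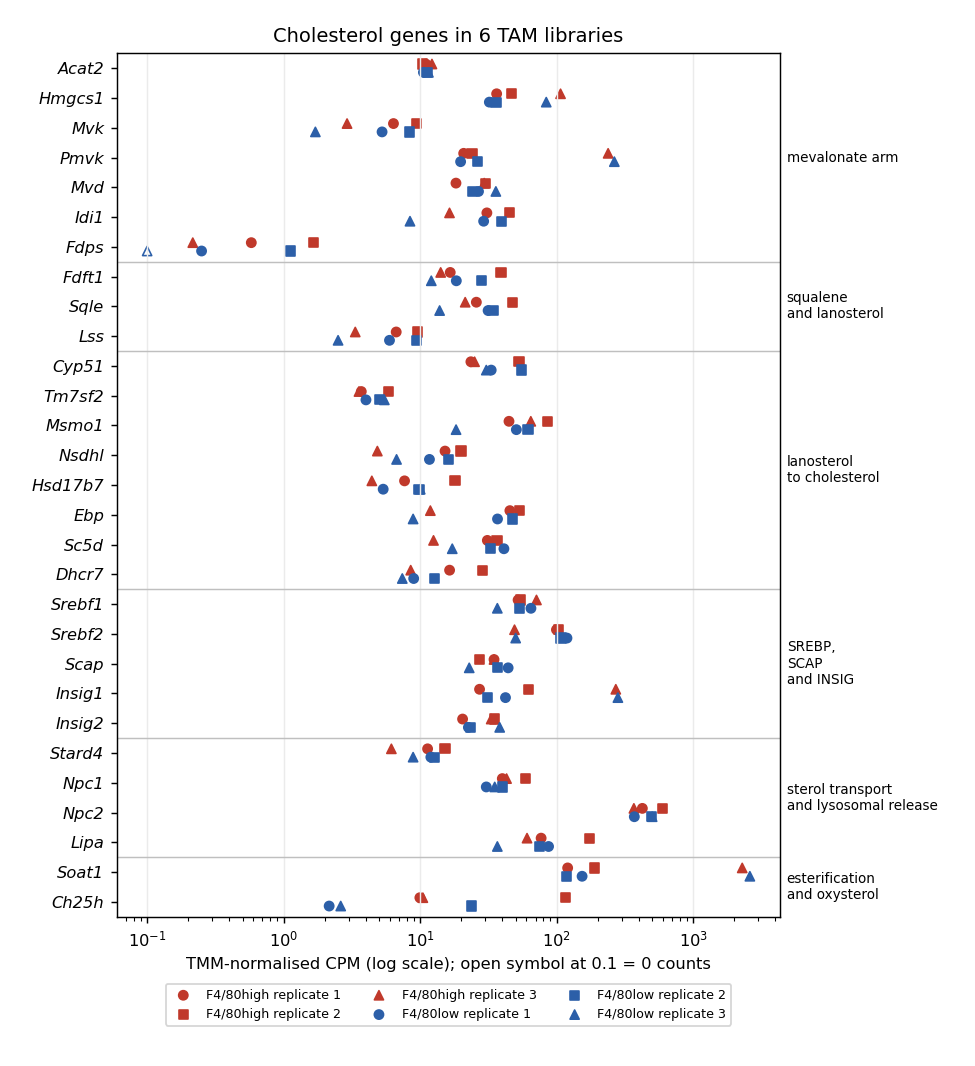
The plot gives the TMM-normalised CPM of the 29 genes (log axis) in each of the 6 libraries, with F4/80high in red, F4/80low in blue and a symbol for each replicate number. The libraries of the 2 subsets overlap for all 29 genes, while *Soat1*, *Pmvk* and *Insig1* lie far higher in both libraries of replicate 3, and *Fdps* in F4/80low replicate 3 has 0 counts.

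In no member were the 3 F4/80high libraries entirely above or below the 3 F4/80low libraries, where 2.27% of all genes lay entirely above and 2.88% entirely below. Compared by replicate number, 9 of the 29 members had more CPM in the F4/80high library of all 3 pairs, against 15.7% of all genes. They were *Hmgcs1*, *Mvk*, *Idi1*, *Fdps*, *Lss*, *Ebp*, *Dhcr7*, *Npc1* and *Ch25h*. *Cyp51* and *Srebf2* were lower in 3 of 3 pairs, against 18.4% of all genes. The pairs differed from each other: the median log2 ratio over the members was -0.08 in pair 1, 0.29 in pair 2 and 0.20 in pair 3.

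F4/80high replicate 2 stood apart from the other libraries of its batch in these genes. Among the 4 libraries of replicates 1 and 2, F4/80high replicate 2 had the highest CPM of 22 of the 29 members (75.9%), against 30.4% of all genes. The summed CPM of the synthesis enzymes without *Pmvk* came to 340.4, 541.5 and 342.4 for replicates 1, 2 and 3 of F4/80high. For F4/80low it came to 351.9, 433.0 and 274.4. In this sum F4/80high replicate 2 was thus the highest and the subsets overlapped, while F4/80high was above F4/80low in both pairs 2 and 3. With *Pmvk* included, the sums were 361.2, 565.5 and 580.7 for F4/80high and 371.6, 459.4 and 539 for F4/80low. F4/80high replicate 3 was then the highest library. The batch fit without F4/80high replicate 2 keeps F4/80low replicate 2 unpaired. There 15 of 29 members had a higher estimate in F4/80high and the median log2 fold change was 0.01. Without F4/80high replicate 1 these values were 22 and 0.35, and without F4/80low replicate 1 they were 18 and 0.10.

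Markers of macrophages and of other cells also differed between the libraries. All 12 macrophage markers were detected in every library, with *Adgre1* at 272.9, 538.7 and 359.9 CPM in F4/80high TAMs, against 242.6, 326.1 and 183.1 CPM in F4/80low TAMs. The *Adgre1* difference did not pass the test (log2 fold change 0.67, SE 0.30, edgeR adjusted p = 0.673). With the block, edgeR called 4 of the 12 macrophage markers higher in F4/80high (*C1qa*, *C1qb*, *C1qc* and *Mertk*, adjusted p of 0.0281 to 0.0391). The same fit called 5 of 9 neutrophil and 1 of 7 dendritic cell markers lower. The summed CPM of the macrophage list was 32740 in F4/80high replicate 2 and 6071 to 15120 in the other libraries. In pair 1 this sum was slightly lower in F4/80high (12080 against 12240). Of its 12 genes, 9 had a higher estimate in F4/80high and 6 were higher in 3 of 3 pairs. Summed neutrophil markers ranged from 726.1 to 2028 in F4/80high and from 1461 to 4543 in F4/80low, with 0 of 9 genes higher in F4/80high. Summed eosinophil markers ranged from 90.37 to 177.0 and from 251.5 to 603.7, with 0 of 8 genes higher, and *Epx* at 0 in a library. Both granulocyte sums were thus lower in the F4/80high library of each pair, with 9 of 9 neutrophil and 6 of 8 eosinophil genes lower in 3 of 3 pairs. Markers of dividing cells summed to 529.6 to 924.2 in F4/80high and 457.6 to 653.8 in F4/80low, with 12 of 12 genes having a higher estimate in F4/80high but 7 of 12 higher in 3 of 3 pairs. Dendritic cell markers summed to 99.35 to 316.8 and 177.1 to 620.3, with 0 of 7 genes higher and *Clec9a* at 0 in a library. Fibroblast markers summed to 437.7 to 1526 and 1047 to 1887, with 0 of 6 genes higher. Both of these sums were lower in the F4/80high library of each pair. T and NK cell markers summed to 114.6 to 920.6 and 49.3 to 443.1, with 6 of 6 genes having a higher estimate. In pair 2 this sum was lower in F4/80high (296.8 against 443.1), and 0 of 6 genes were higher in 3 of 3 pairs. A Lin- gate would usually remove T, NK and B cells. The 3 melanoma cell markers present in the tables summed to at most 3.075 CPM in any library. One of them, *Mlana*, did not pass the count filter and was at 0 in at least 1 library. B cell markers summed to 6.035 to 126.5 CPM over the 6 libraries. Of the 4 keratinocyte markers, 1 was among the counted genes, at 0.2277 to 1.817 CPM. The part of these cells in the members' levels was not tested.

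**Figure D2:**
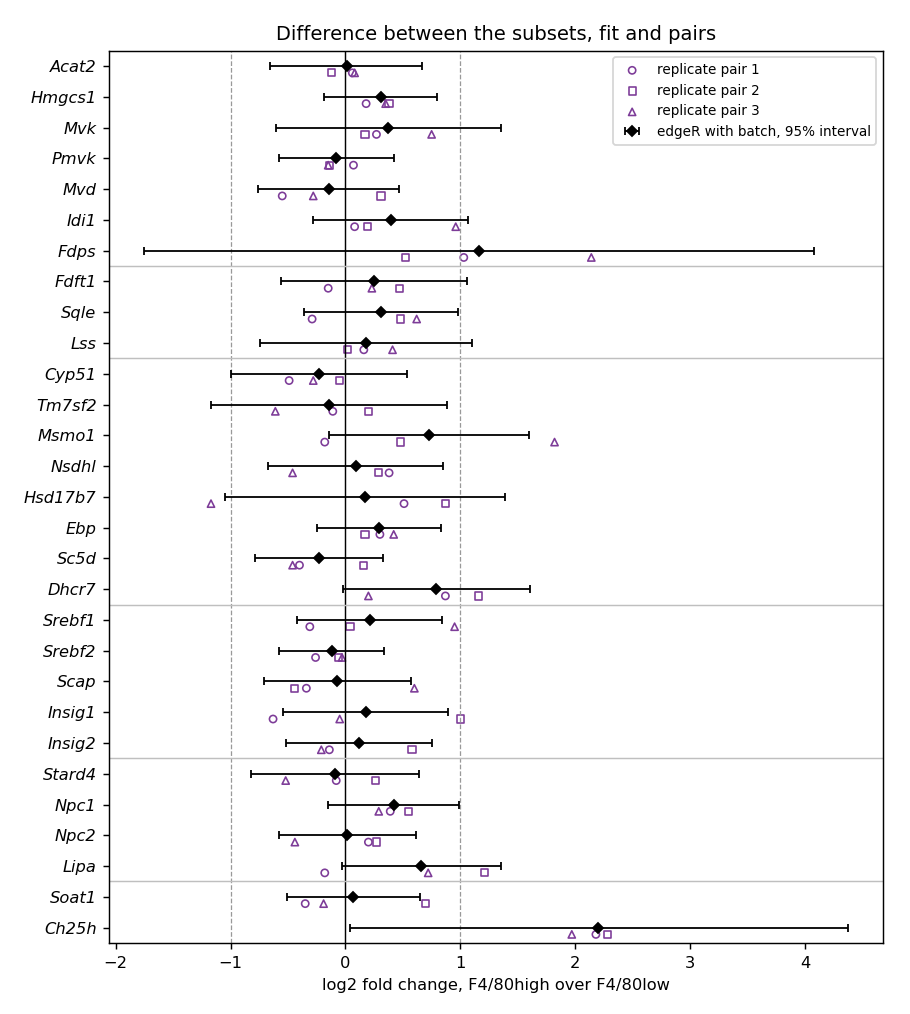
The plot gives, for each gene, the log2 fold change of F4/80high over F4/80low from edgeR with batch and its 95% interval (black), and the log2 ratio in each replicate pair (purple symbols). The interval spans 0 for 28 of 29 genes and lies above 0 for *Ch25h*, and dashed lines mark a log2 fold change of -1 and 1.

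The 18 synthesis enzymes had 13 higher and 5 lower estimates in F4/80high, with a median log2 fold change of 0.21, and none was called in any of the fits. For 18 of 18 the 95% interval of the batch fit spanned 0. For 8 of 18 it lay within -1 and 1, so that a change of more than 2-fold was outside the interval for these 8 and inside it for the others. The smallest adjusted p among them was 0.682 with batch and 0.477 with the block, both in edgeR.

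The mevalonate arm makes the isoprenoid units from acetyl-CoA. *Acat2* (cytosolic thiolase), *Hmgcs1* (HMG-CoA synthase), *Mvk* and *Pmvk* (the kinases of mevalonate and phosphomevalonate), *Mvd* (the decarboxylase) and *Idi1* (the isomerase) had log2 fold changes from -0.14 in *Mvd* to 0.40 in *Idi1*. *Hmgcs1* was higher in F4/80high in 3 of 3 pairs by small margins, with log2 ratios of 0.18, 0.38 and 0.35 (log2 fold change 0.31, 95% interval -0.19 to 0.80, edgeR adjusted p = 0.753). *Acat2* was the steadiest member, at 10.46 to 12.20 CPM over all 6 libraries. Its reads may be shared with *Acat3*, which is 97.7% identical over 1477 bases and had 2 to 16 counts a library, and over 445 bases with *Tcp1*, which is 98.7% identical there and had 1041 to 7120 counts against 101 to 539 of *Acat2*.

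*Fdps*, the synthase of farnesyl diphosphate at the branch point to sterols and prenylated proteins, had the largest estimate of the arm and the fewest reads. Replicates 1, 2 and 3 of F4/80high had 0.5796, 1.649 and 0.216 CPM, and those of F4/80low had 0.2505, 1.13 and 0 CPM. The subsets overlapped, and F4/80low replicate 3 had 0 counts, which allows up to 0.342 CPM. The log2 fold change was 1.16 with an SE of 1.29 (edgeR adjusted p = 0.861), so a difference was not detectable with these few counts. *Fdps* had 23, 85 and 2 counts in F4/80high TAMs, against 10, 46 and 0 in F4/80low TAMs. Its processed pseudogene *Gm3571* on chromosome 10, which is 98.9% identical to an *Fdps* transcript over 1062 bases, had 143, 326 and 11 counts in F4/80high TAMs, against 130, 260 and 5 in F4/80low TAMs. In every library the pseudogene thus held more reads than the gene. *Fdps* exons also share 1124 of their 4208 bases (26.7%) with those of the protein-coding gene *Gm43738* on the same strand. *Gm43738* had 0 counts in every library, and how reads shared by the 2 genes were counted is not known. The level of *Fdps* itself is therefore uncertain.

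**Figure D3:**
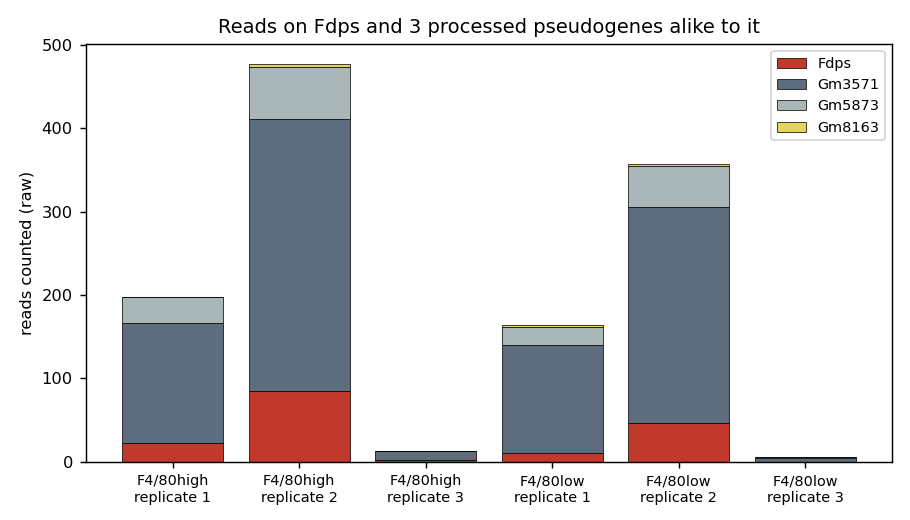
The bars stack the raw counts of *Fdps* (red) and of 3 of its processed pseudogenes in each library. *Gm3571* takes the largest share in all 6 libraries, and the 2 libraries of replicate 3 hold few reads of either.

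Squalene and lanosterol are made by *Fdft1* (squalene synthase), *Sqle* (squalene epoxidase, a rate-limiting step) and *Lss* (lanosterol synthase). *Sqle* was at 25.81, 47.71 and 21.38 CPM in F4/80high and at 31.47, 34.23 and 13.89 CPM in F4/80low. F4/80high was lower in pair 1 and higher in pairs 2 and 3, and the subsets overlapped (log2 fold change 0.31, SE 0.30, edgeR adjusted p = 0.821). *Fdft1* (0.25) and *Lss* (0.18) had smaller log2 fold changes. *Fdft1* exons overlap those of *Ctsb* on the other strand by 774 bases, and *Ctsb* had 3554 to 364189 counts a library, so reads of the 2 genes could be mixed where counting took no account of strand.

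The later enzymes trim and rearrange lanosterol into cholesterol. They are *Cyp51* (removal of the C14 methyl group), *Tm7sf2* (sterol C14 reductase), *Msmo1*, *Nsdhl* and *Hsd17b7* (removal of the C4 methyl groups), *Ebp* (the isomerase), *Sc5d* (the desaturase) and *Dhcr7*. *Dhcr7*, which reduces 7-dehydrocholesterol to cholesterol, had the largest estimate among them. It was at 16.43, 28.64 and 8.53 CPM in F4/80high and at 8.969, 12.74 and 7.401 CPM in F4/80low. F4/80high was higher in each pair, with log2 ratios of 0.87, 1.16 and 0.20, while its replicate 3 lay below 2 of the F4/80low libraries. The log2 fold change was 0.79 (SE 0.36, 95% interval -0.02 to 1.61, edgeR adjusted p = 0.682), and with the block it was 0.77 (edgeR adjusted p = 0.477). Without F4/80high replicate 2, the highest library, the batch fit gave 0.41.

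*Msmo1*, the first enzyme of C4 demethylation, had the next largest estimate of these 8, a log2 fold change of 0.73 (SE 0.39, edgeR adjusted p = 0.699). Its pairs did not share a direction, with log2 ratios of -0.18, 0.48 and 1.82, and without replicate 3 of both subsets the log2 fold change was 0.22. *Hsd17b7* was the most divided, with log2 ratios of 0.51, 0.87 and -1.17. *Ebp* was higher in F4/80high by 0.17 to 0.42 on the log2 scale in 3 of 3 pairs, and *Cyp51* was lower by values of -0.05 to -0.49. *Sc5d* (-0.23), *Tm7sf2* (-0.14) and *Nsdhl* (0.09) had fit estimates near 0, each with pairs in both directions. *Tm7sf2* exons share 532 bases with those of *Vps51* on the same strand, so reads of these genes could be mixed. *Vps51* had 73 to 2364 counts a library, against 33 to 301 of *Tm7sf2*.

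None of the 5 genes that sense sterols and drive the pathway was called, and their estimates were small. *Srebf2* encodes the factor that mainly drives cholesterol synthesis and *Srebf1* the one that mainly drives fatty acid synthesis. *Srebf2* was at 99.67, 102.9 and 49.13 CPM in F4/80high and at 119.0, 107.7 and 50.1 CPM in F4/80low. It was lower in F4/80high in 3 of 3 pairs by narrow margins, the smallest of them -0.03, and the subsets overlapped (log2 fold change -0.12, 95% interval -0.58 to 0.34, edgeR adjusted p = 0.924). *Srebf1* was at 52.19, 54.67 and 71.16 CPM in F4/80high and at 64.81, 53.19 and 36.78 CPM in F4/80low. Its pairs gave log2 ratios of -0.31, 0.04 and 0.95, so F4/80high stood clearly higher in pair 3 alone, and the fit gave 0.21 (95% interval -0.42 to 0.84, edgeR adjusted p = 0.891). Without replicate 3 of both subsets this estimate was -0.14.

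*Insig1*, itself a target of SREBP, was at 27.24, 62.3 and 271.3 CPM in F4/80high and at 42.19, 31.09 and 281.0 CPM in F4/80low. The subsets swapped order between pairs 1 and 2, and both libraries of replicate 3 were far above the rest. *Insig2*, the other INSIG gene, was at 20.46, 35.06 and 33.15 CPM in F4/80high and at 22.57, 23.38 and 38.26 CPM in F4/80low. Neither differed beyond the spread between replicates (log2 fold changes of 0.18 and 0.12, edgeR adjusted p of 0.928 and 0.947). *Scap*, which encodes the escort protein, had a log2 fold change of -0.07. For all 5 of these genes the 95% interval lay between -0.71 and 0.89.

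Cholesterol that arrives in lysosomes is freed from its esters by lysosomal acid lipase, encoded by *Lipa*, and handed out by the NPC2 and NPC1 proteins. *Lipa* was at 76.96, 173.0 and 60.68 CPM in F4/80high and at 87.24, 74.65 and 36.78 CPM in F4/80low. F4/80high was lower in pair 1 and higher in pairs 2 and 3, with its replicate 2 the highest library (log2 fold change 0.66, SE 0.31, edgeR adjusted p = 0.683). Without F4/80high replicate 2 the estimate was 0.23.

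*Npc1* was higher in F4/80high in 3 of 3 pairs, with log2 ratios of 0.39, 0.55 and 0.29, but did not pass the test (log2 fold change 0.42, SE 0.25, edgeR adjusted p = 0.714). Its exons overlap those of *Rmc1* on the other strand by 511 bases, and *Rmc1* had 112 to 2844 counts a library, so their reads could be mixed as well. *Npc2* had the highest level per length of all members in replicates 1 and 2, with a mean of 144.9 CPM per kb, and a log2 fold change of 0.01. *Stard4*, which encodes a soluble carrier of sterols between membranes, had a log2 fold change of -0.09.

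*Soat1* encodes the enzyme that esterifies cholesterol for storage in lipid droplets. Its log2 fold change was 0.07 (95% interval -0.51 to 0.65), with pair ratios of both signs.

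*Ch25h* is a gene on the minus strand of chromosome 19 (chr19:34473778-34475164, GENCODE M21 on GRCm38), with *Lipa* lying 17153 bases away on the same strand. Replicates 1, 2 and 3 of F4/80high had 9.954, 116.8 and 10.47 CPM of *Ch25h*, and those of F4/80low had 2.155, 23.94 and 2.619 CPM. Both libraries of replicate 2 were far above those of the same subset, so the subsets overlapped, yet F4/80high was 4.53, 4.86 and 3.92 times as high as F4/80low within pairs 1, 2 and 3 (ratios of CPM with a prior count of 2). These levels rest on 395, 6022 and 97 counts in F4/80high TAMs, against 86, 975 and 23 in F4/80low TAMs.

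The size of the *Ch25h* difference was the same with batch or block, but its error was not. With batch, which leaves replicates 1 and 2 unpaired, the log2 fold change was 2.20 (SE 0.96, 95% interval 0.04 to 4.37) and did not pass the test (edgeR adjusted p = 0.654). With the experiment as a block it was 2.18 (95% interval 1.59 to 2.77) and passed (edgeR adjusted p = 0.0281), as it did in DESeq2 with the block (adjusted p = 1.87e-09) but not in DESeq2 with batch (adjusted p = 0.588). When one experiment was left out of the block fit, the call held without replicate 1 (adjusted p = 0.000121) and without replicate 3 (0.027) and was lost without replicate 2 (log2 fold change 2.07, adjusted p = 0.13). In the batch fit, leaving out 1 library gave log2 fold changes from 0.55, without F4/80high replicate 2, to 3.72, without F4/80low replicate 2, with no call. The noncoding gene *Gm26902* overlaps 11.5% of its exon bases on the other strand, and had 28, 114 and 2 counts in F4/80high TAMs, against 2, 13 and 0 in F4/80low TAMs.

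**Figure D4:**
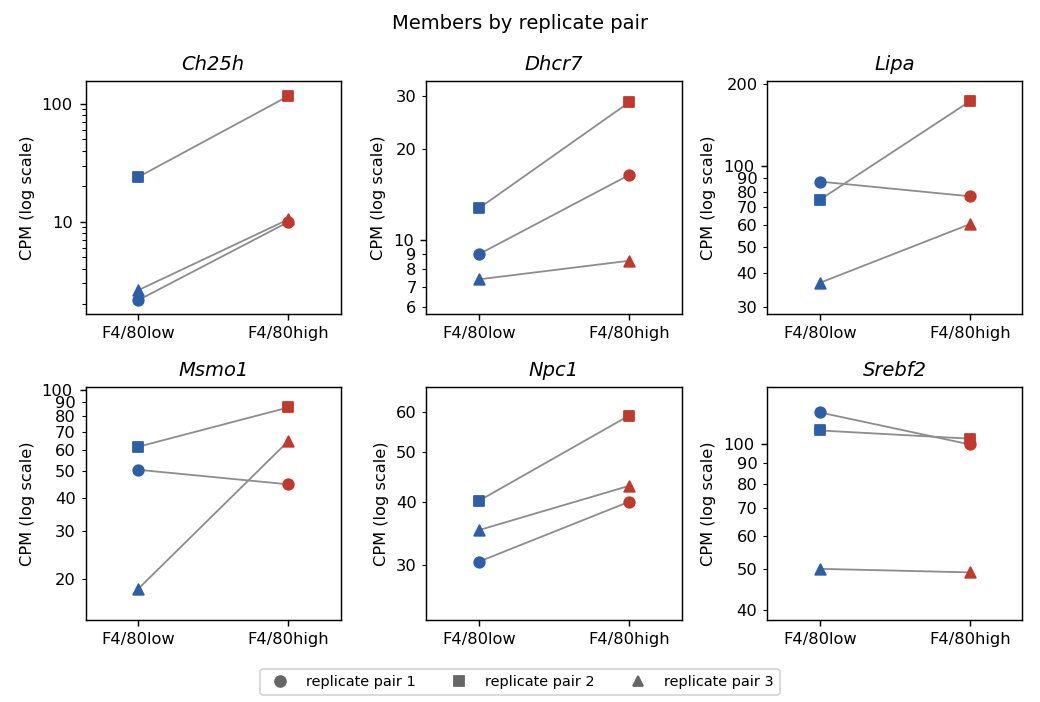
Each panel gives the CPM of one gene (log axis, with its own range) in F4/80low and F4/80high, with a line joining the libraries of one replicate pair. The 3 lines of *Ch25h* are nearly parallel, and those of *Dhcr7* and *Npc1* slope upward by unequal amounts. For *Lipa* and *Msmo1* pair 1 alone slopes downward, and for *Srebf2* all 3 lines do, those of pairs 2 and 3 only slightly.

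Between batches 13 members were called, while between subsets the same fit called 0 members and 0 of all 14776 genes. The study's plot of its samples marks replicate 3 of both subsets as a second batch. Replicate 3 was also taken as the third experiment, so that batch and experiment cannot be told apart. In the batch term of the edgeR fit, 4 members were called higher in batch 2 and 9 lower. Of all 14776 genes, 2627 (17.8%) were called higher and 2969 (20.1%) lower, so such differences were not particular to the members. *Soat1* was 16.9-fold higher (adjusted p = 7.21e-06), from 117.3 to 190.0 CPM in batch 1 to 2288 and 2603 in batch 2. *Pmvk* was 11-fold higher (adjusted p = 6.81e-06), from 19.79 to 26.4 CPM to 238.3 and 264.6. Neither overlapped between the batches. *Insig1* was 6.83-fold higher (adjusted p = 0.000204) and *Hmgcs1* 2.52-fold higher (adjusted p = 0.00151).

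The 9 members called lower in batch 2 were *Mvk*, *Idi1*, *Sqle*, *Lss*, *Nsdhl*, *Ebp*, *Sc5d*, *Srebf2* and *Lipa*. The largest of these differences was in *Ebp*, which was 4.43-fold lower (edgeR adjusted p = 0.000412). Enzymes of one linear pathway thus went in opposite directions, *Pmvk* and *Hmgcs1* higher and *Mvk* and *Idi1* lower, in both subsets alike. The 3 most abundant features took 16.9% and 17.0% of all counts in the batch 2 libraries and 0.804% to 1.13% in batch 1. The part of this composition in the members' values was not tested.

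**Figure D5:**
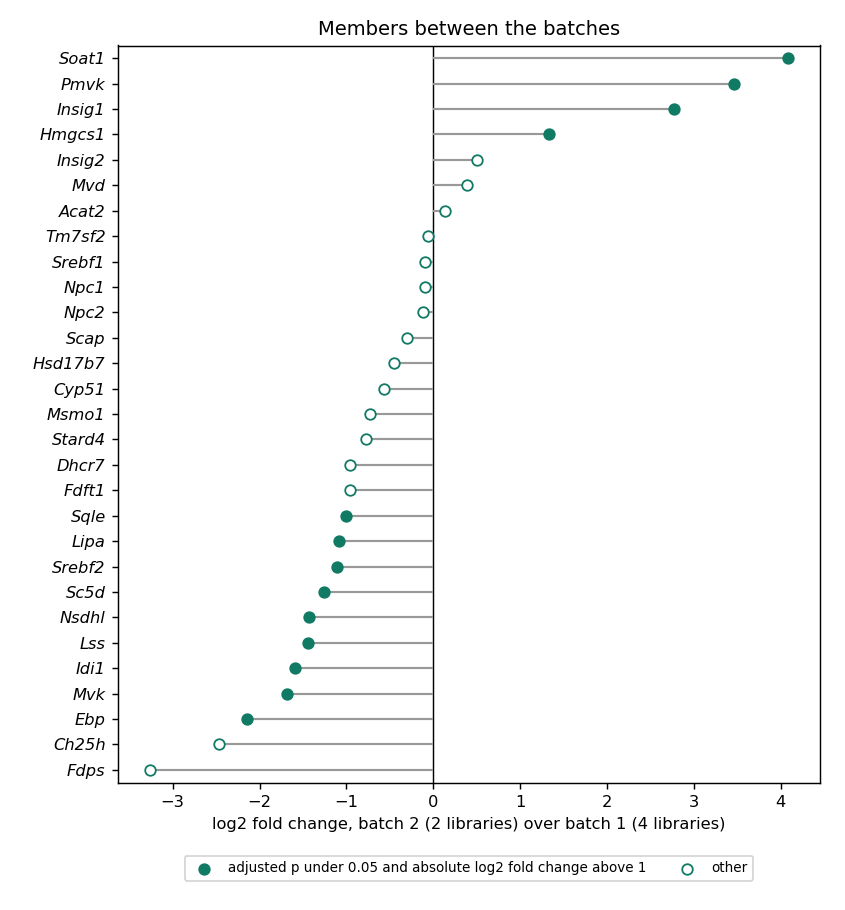
The plot ranks the 29 genes by the log2 fold change of batch 2 over batch 1 from the edgeR batch term, with filled points for the 13 genes past the threshold. *Soat1*, *Pmvk*, *Insig1* and *Hmgcs1* are called on the right and 9 genes on the left, while *Fdps* and *Ch25h* have larger estimates than these 9 but were not called.

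The order of the members by level therefore depended on the batch. In batch 1, on mean CPM per kb, *Npc2* (144.9) was followed by *Lipa* (34.68) and *Srebf2* (21.51). *Lss* (0.7313) and *Fdps* (0.2144) came last, though the level of *Fdps* is uncertain. *Ch25h* had no settled place, with 86.54 CPM per kb in F4/80high replicate 2 and 7.374, 1.596 and 17.73 in the others (mean 28.31). The libraries of *Npc2* (113.7 to 183.7) lay above all others. In batch 2, *Soat1* led with 249.8 CPM per kb, ahead of *Pmvk* (146.8), *Npc2* (133.2) and *Insig1* (89.29). *Pmvk* and *Npc2* overlapped there.

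Other genes of sterol handling did not pass the test either. Of 37 genes listed in 5 groups, 36 were fitted, 16 with a higher and 20 with a lower estimate in F4/80high, a median log2 fold change of -0.08, and 0 called with batch or with the block. At an unadjusted p under 0.05 there was 1, *Abca1*, in the batch fit, where 7.57% of all genes were. The block fit had 3 (9.84% of all genes), *Abca1* and *Marco* higher and *Olr1* lower in F4/80high, with edgeR adjusted p of 0.320 to 0.485. *Abca1*, the main exporter of cholesterol to lipid-poor apolipoprotein, was at 103.9, 230.0 and 103.2 CPM in F4/80high and at 99.29, 89.11 and 49.76 CPM in F4/80low. All F4/80high libraries lay above all F4/80low libraries, in pair 1 by a log2 ratio of 0.07 (log2 fold change 0.90, SE 0.30, edgeR adjusted p = 0.536).

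In the efflux group, *Nr1h3*, which encodes LXR alpha, had a log2 fold change of 0.61, *Nr1h2* (LXR beta) of -0.08 and the exporter *Abcg1* of -0.06. *Abcg1* was at 58.57 to 79.6 CPM in batch 1 and at 5170 and 5544 in batch 2. Of the 8 scavenger and lipoprotein receptors, 3 were higher and 5 lower. *Msr1*, which takes up modified lipoproteins, had a log2 fold change of 0.98 (SE 0.53), with 1343 CPM in F4/80high replicate 2 and 247.6 to 390.7 in the others. *Marco* had a log2 fold change of 3.99 (SE 2.07) that rested on 8, 162 and 0 counts in F4/80high TAMs, against 0, 8 and 0 in F4/80low TAMs. *Olr1* (-0.78) and *Scarb1* (-0.45), receptors of oxidised low-density and of high-density lipoprotein, had lower estimates in F4/80high.

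Of the 9 other enzymes of sterol and isoprenoid synthesis, 4 were higher and 5 lower, with *Nus1* at 0.49, *Hsd3b7* at 0.24, *Lbr* at -0.32 and *Cyp7b1* at -0.97 on the log2 scale. Among the SREBP proteases and ubiquitin ligases, *Mylip* was at -0.07 and *Mbtps2* at 0.18, and none was called. The 9 other sterol carriers and ester hydrolases had 2 higher estimates, *Gramd1b* (0.29) and *Nceh1* (0.35), and 7 lower ones, led by *Stard3* (-0.44, SE 0.21) and *Lipe* (-0.47, SE 0.29).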

How the data were processed

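Sorted TAMs were analysed by poly(A) RNA-seq, with 3 F4/80high and 3 F4/80low libraries. The authors deposited a table of raw read counts per gene for each library, with the gene's length in bases and its biotype, made with the standard alignment pipeline of their sequencing center. The aligner, strand setting and annotation are not given in the sources used here. Of the gene IDs, 99.3% were found in GENCODE M21 (GRCm38), which gave positions, and 73.4% of the matched lengths were equal to its merged exons. Deposited lengths were shorter for *Fdft1* (2860 against 4227 bases), *Tm7sf2* (3484 against 4403), *Npc1* (10725 against 11317) and *Ch25h* (1350 against 1387). The exon overlaps given for these genes are those of GENCODE M21 and may differ in the annotation that was counted.

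The fits were run in R 4.3.3, using edgeR 4.0.16 (quasi-likelihood test, TMM, terms for batch and subset), limma 3.58.1 and DESeq2 1.42.0. The 14776 genes that are protein-coding by the tables and had at least 10 counts in total were fitted, and p-values were adjusted over all of them (Benjamini-Hochberg). SEs are the log2 fold change divided by the square root of F. CPM per kb divides by the deposited length. Batches were taken from the study's plot, as the labels give none. Replicates of one number were taken to come from one experiment and used as pairs, though the labels give the replicate number alone. Over 10089 genes, deviations from subset means correlated at 0.745, 0.729 and 0.907 within pairs 1, 2 and 3. Libraries of replicates 1 and 2 with unlike numbers correlated at 0.613 and 0.633, nearly as high. Within batch 1 the pairing thus rests on the replicate numbers more than on these values. P-values measure the spread between these pools. No library was a copy of another. The steps were tested on simulated data. Near-identical transcripts (at least 95% identity over 200 bases) were sought with BLAST 2.17.0, and figures were drawn with matplotlib 3.10.9.

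The members and lists were chosen with earlier results of these data known. Values in every library are given for members with an unadjusted p under 0.05 in the batch or block fit, the member with the largest absolute log2 fold change of each role, *Srebf1*, *Srebf2*, *Insig1* and *Insig2*. *Acat2*, *Msmo1* and *Npc1* were described further after their values were seen. Of each related list, up to 2 genes with the smallest p in each direction are named. One gene that this rule would name is not reported here. Alternatives were DESeq2, other scalings, filters and biotypes, no batch term, the block, and leaving out libraries.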

Additional observations from a re-analysis of the deposited data

How the results depend on the processing

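The replicate block, which pairs libraries of one replicate number, changed the call of *Ch25h* and of no other member. The number of members called was 0 in the fit with batch, 1 with the replicate block in edgeR and 1 with the block in DESeq2. In block fits chosen after seeing the data, it was 1 without replicate 1 of both subsets, 0 without replicate 2 and 1 without replicate 3. All genes called were 0 in the fit with batch, 76 with the replicate block, 150 in DESeq2 with batch and 357 in DESeq2 with the block. They were 380, 107 and 23 in the block fits without replicates 1, 2 and 3, and 0 to 55 when 1 library was left out of the batch fit, the 55 without F4/80high replicate 1. Members at an unadjusted p under 0.05 numbered 1 with batch, 3 with library size alone, 2 with the block, 4 in DESeq2 with the block and 0 in DESeq2 with batch, with no batch term, with filterByExpr and with all biotypes. They ranged from 0 to 4 when 1 library was left out. Of all 14776 genes, 1118 passed the same threshold with batch, 1048 with library size alone and 1454 with the block. In DESeq2, 1723 passed with the block and 1387 with batch, and 260 passed in edgeR with no batch term. With filterByExpr 1076 of 13655 genes passed, and with all biotypes 1321 of 20039. With 1 library left out, 562 to 1994 genes passed. The median log2 fold change of the members stayed between 0.01 and 0.35, and 0 related genes were called in the alternatives run for them. With at least 10 counts in every library, *Fdps* was not fitted.

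Of 29 members, 14 kept their direction in every alternative, and 49 of 579 values reversed, none of them called. Without replicate 3 of both subsets, log2 fold changes became -0.03 for *Acat2*, -0.14 for *Srebf1*, 0.11 for *Stard4* and 0.08 for *Tm7sf2*. *Soat1* was at -0.15 with no batch term. In the block fits, without replicate 1 *Acat2* was at -0.02, *Hsd17b7* at -0.10, *Mvd* at 0.02, *Npc2* at -0.09, *Nsdhl* at -0.06 and *Scap* at 0.07. Without replicate 2, *Fdft1* was at -0.01, *Hsd17b7* at -0.33, *Insig1* at -0.38, *Insig2* at -0.21, *Npc2* at -0.16, *Nsdhl* at -0.05, *Scap* at 0.08 and *Soat1* at -0.31. Without replicate 3, *Acat2* was at -0.03, *Srebf1* at -0.13, *Stard4* at 0.09 and *Tm7sf2* at 0.05. With 1 library left out, log2 fold changes ranged from -0.03 to 0.05 for *Acat2*, -0.67 to 0.04 for *Cyp51*, -0.22 to 0.54 for *Fdft1*, -0.48 to 0.76 for *Hsd17b7*, -0.30 to 0.42 for *Insig1*, -0.22 to 0.27 for *Insig2*, -0.43 to 0.02 for *Mvd*, -0.24 to 0.24 for *Npc2*. They ranged from -0.13 to 0.33 for *Nsdhl*, -0.20 to 0.04 for *Pmvk*, -0.39 to 0.10 for *Scap*, -0.21 to 0.20 for *Soat1*, -0.14 to 0.39 for *Srebf1*, -0.31 to 0.11 for *Stard4* and -0.45 to 0.07 for *Tm7sf2*. The cause of these reversals was not tested. Depth limits genes with few counts most in batch 2, where 3 counts are 0.324 and 0.342 CPM.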
